A study of Danio rerio with 12 samples.

Results

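The genes described here encode the respiratory chain of zebrafish ovary, both those carried on the mitochondrial genome and those in the nucleus. Members were matched by gene symbol, under a rule set with earlier results of these data known. They were the mitochondrial genes of NADH dehydrogenase, cytochrome b, cytochrome c oxidase and ATP synthase, and a set of nuclear families. These families were nduf (the A, B, C, S and V subunits, without the ndufaf assembly factors), sdh, uqcr, cox4 to cox8 and atp5. Of the 26171 named genes in the deposited table, 108 matched, of which 13 belonged to the mitochondrial genome and 95 to the nucleus. The mitochondrial set held 7 genes of complex I, 1 of complex III, 3 of complex IV and 2 of complex V. The nuclear set held 37 genes of complex I, 5 of complex II, 8 of complex III, 18 of complex IV and 17 of complex V, besides 2 inhibitors of complex V, 4 members of the ndufa4 family and 4 assembly factors of complex II (sdhaf). The mitochondrial ribosomal and transfer RNAs were not analysed here.

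The respiratory chain is a series of protein complexes in the inner mitochondrial membrane. Complexes I and II take electrons from NADH and succinate, complex III passes them to cytochrome c, and complex IV passes them to oxygen, while complex V (ATP synthase) uses the resulting proton gradient to make ATP. Complex II is encoded in the nucleus alone, whereas complexes I, III, IV and V join subunits from both genomes. Mitochondrial DNA is read as long transcripts that are then cut into single messages, with mt-atp8 and mt-atp6, and likewise mt-nd4l and mt-nd4, kept together on shared messages. Growing oocytes are known for making many copies of mitochondrial DNA and many mitochondria, which the egg passes to the embryo.

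The study sequenced polyadenylated RNA of whole ovary in 12 libraries, to ask what adamts9, a secreted metalloprotease gene, does in ovary formation and upkeep. Wild-type fish of the AB strain and adamts9 mutant fish were each sampled at 47 and at 61 days post fertilization (dpf), with 3 libraries in every one of these 4 groups. The labels name neither the mutant allele nor the number of animals behind a library, and they do not say that replicates were separate fish. The p-values thus measure the spread between these libraries, pooled over the 4 groups, which may be technical in part. The series' design text gives other ages (41 and 67 dpf), and the ages of the sample labels are used here.

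Library totals ran from 16456718 to 38754919 counts, and all levels below are CPM, a gene's counts relative to the total of its library, scaled by the TMM method to make libraries comparable. A count of 0 allowed a level of up to 0.0811 to 0.181 CPM, counting error only. Transcript levels of adamts9 itself overlapped between the genotypes at both ages, at 9.98 to 15.9 CPM in wild type and 12.9 to 16.1 CPM in mutant at 61 dpf, and so gave no check of the genotype labels. The 12 oocyte markers were detected in each of the 4 groups, with sums at 47 dpf of 8573 to 9675 CPM (wild type) and 10284 to 11561 CPM (mutant), and at 61 dpf of 5873 to 9512 CPM (wild type) and 8110 to 9734 CPM (mutant). A pair of libraries stood apart in the nuclear members. Wild-type replicate 2 at 61 dpf held the lowest level of 65 of the 94 nuclear members tested, and mutant replicate 2 at 47 dpf held the highest level of 43 of them.

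Transcripts of the mitochondrial genome were most abundant in wild-type ovary at 61 dpf. Summed over the 13 genes, the level was 7806, 7268 and 8713 CPM in wild type and 8172, 5828 and 8162 CPM in mutant at 47 dpf. At 61 dpf it was 11059, 14620 and 24157 CPM in wild type and 8542, 10034 and 7332 CPM in mutant. The 3 wild-type libraries at 61 dpf lay above the other 9, with a mean of 16612 ± 6772 CPM (SD, n = 3) against 7929 ± 730 in wild type at 47 dpf, 7387 ± 1350 in mutant at 47 dpf and 8636 ± 1353 in mutant at 61 dpf. On CPM without TMM scaling, the lowest wild-type library at 61 dpf (10554 CPM) lay just under the highest mutant library (10604 CPM), so that the separation of the genotypes at that age rested on the scaling. As a share of all counts, mitochondrial transcripts made up 1.06%, 1.43% and 2.21% of the wild-type libraries at 61 dpf and 0.911%, 1.06% and 0.748% of the mutant ones. In whole-ovary RNA, fewer cells of a type and less RNA per cell cannot be told apart.

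Nuclear members did not follow that pattern. Summed over the 95 genes, the level was 5252, 5393 and 6122 CPM in wild type and 5130, 7301 and 6030 CPM in mutant at 47 dpf. At 61 dpf it was 5799, 2663 and 4541 CPM in wild type and 4857, 4214 and 5073 CPM in mutant. The genotypes overlapped at both ages, and the wild-type libraries at 61 dpf spanned the widest range, with a mean of 4334 ± 1578 CPM (SD, n = 3). The ratio of the mitochondrial to the nuclear sum, which does not depend on library scaling, was 1.49, 1.35 and 1.42 in wild type and 1.59, 0.798 and 1.35 in mutant at 47 dpf. At 61 dpf it was 1.91, 5.49 and 5.32 in wild type and 1.76, 2.38 and 1.45 in mutant. Wild-type replicates 2 and 3 at 61 dpf had by far the highest ratios, while wild-type replicate 1 fell within the mutant range, so the genotypes overlapped on this measure at 61 dpf. Without mt-co1, the mitochondrial gene with the most counts, the ratio at 61 dpf was 1.47, 3.81 and 4.36 in wild type and 1.15, 1.69 and 0.958 in mutant. Wild-type replicates 2 and 3 again stood highest, and replicate 1 again lay within the mutant range.

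**Figure D1:**
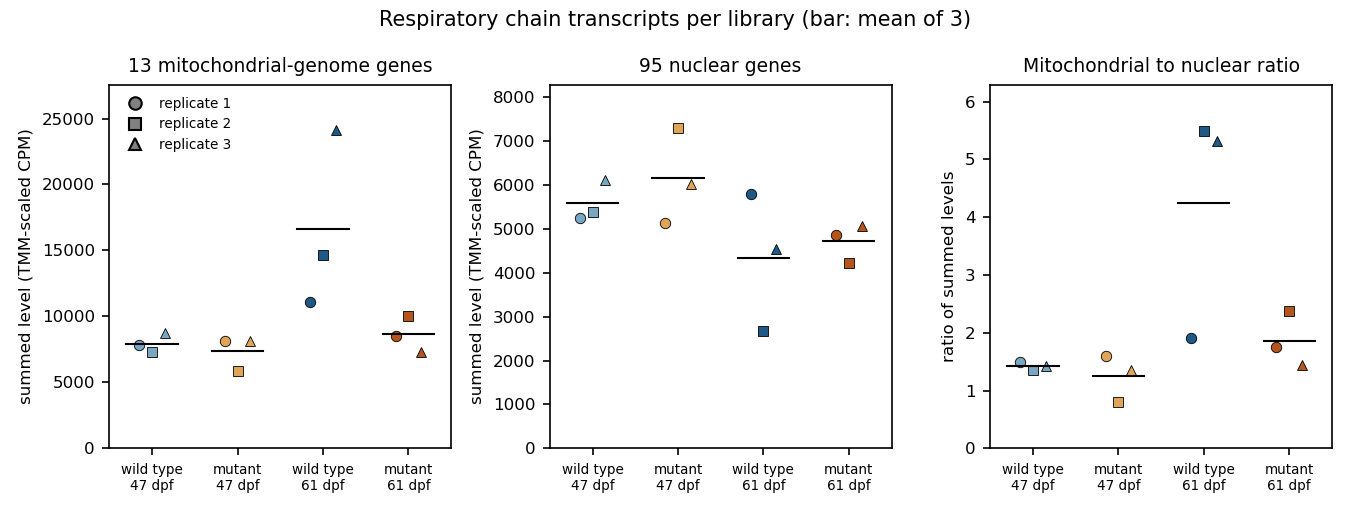
Summed TMM-scaled CPM of the 13 mitochondrial-genome genes (left) and the 95 nuclear genes (middle), and the ratio of these sums (right), in each of 12 libraries, with bars at the group means. The wild-type libraries at 61 dpf sit at 11059, 14620 and 24157 CPM for the mitochondrial sum, above the other 9 libraries, and spread from 2663 to 5799 CPM for the nuclear sum.

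The summed level of the 12 oocyte markers within wild type at 61 dpf was 9512 CPM in replicate 1, where the ratio was 1.91, and 5873 and 6961 CPM in replicates 2 and 3, where it was 5.49 and 5.32. The 3 egg coat genes zp2.1, zp3b and zp3c carried this difference: they summed to 4614 CPM in replicate 1 and to 1032 and 734 CPM in replicates 2 and 3. The other 9 markers summed to 4898, 4841 and 6226 CPM and did not follow the ratio. This split of the list was made after its values were seen. zp2.1, with the highest mean level of its list in wild type at 47 dpf, stood at 2930, 520 and 295 CPM. The other 9 markers did not move together over these libraries. Of the oocyte growth factor genes, bmp15 stood at 236, 284 and 538 CPM and gdf9 at 74.4, 62.6 and 79.5 CPM. zar1 stood at 525, 497 and 367 CPM. figla, with the smallest p of the oocyte markers between genotypes at 61 dpf, stood at 23.2, 21.8 and 37.2 CPM. Every other library, of either age or genotype, held more of it, at 43.9 to 68.6 CPM. Its log2 fold change between genotypes at 61 dpf was 0.91 ± 0.24 (edgeR adjusted p = 0.065). Of the 12 oocyte markers, 8 had a log2 fold change above 0 in that comparison, and none was called. Of the 9 markers of granulosa and other follicle cells, none was at 0 in any of the groups, and the sum was 57.9 to 70.9 CPM in wild type and 70.8 to 89.5 CPM in mutant at 61 dpf. The list did not move as one at that age: its median log2 fold change was -0.29, with 2 of 9 above 0. Its highest gene, gsdf, was higher in mutant (log2 fold change 1.55 ± 0.34, edgeR adjusted p = 0.0439). In contrast, fshr was lower (-1.18 ± 0.24, edgeR adjusted p = 0.0379). Macrophage and neutrophil markers, 12 in number, were likewise all detected, with sums of 67.3 to 102 CPM in wild type and 166 to 180 CPM in mutant at 61 dpf, and of 52.3 to 82.8 CPM and 131 to 292 CPM at 47 dpf. At 61 dpf most of each mutant sum came from cd74a and cd74b. cd74a was at 16.2, 29 and 22.6 CPM in wild type and 73.3, 64.6 and 63.7 CPM in mutant. cd74b was at 16.6, 12.6 and 21.8 CPM against 58.6, 41.8 and 52.5 CPM. Of the 12 markers, 9 had a log2 fold change above 0 at that age. Called higher were cd74a, cd74b and coro1a, where 1.22% of all genes were. lyz was lower in each mutant library, and spi1b was highest in wild-type replicate 3, at 24 CPM. The 12 exocrine pancreas markers summed to 4.42 to 585 CPM in wild type and 26.4 to 2293 CPM in mutant at 47 dpf. At 61 dpf these sums were 125 to 664 CPM and 9.02 to 731 CPM. The 13 liver markers reached 222 CPM in mutant replicate 1 at 47 dpf, against 21.2 and 34.7 CPM in replicates 2 and 3. The 8 red blood cell markers summed to 253 to 535 CPM in wild type and 165 to 825 CPM in mutant at 47 dpf. At 61 dpf they summed to 26.5 to 61.3 CPM and 37.6 to 75.5 CPM. The part of these cell types and tissues in the respiratory chain results was not tested.

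Compared with wild type of the same age, mutant ovary at 61 dpf had lower transcript levels of 1 mitochondrial gene, mt-nd4, and higher levels of 1 nuclear gene, cox8a, in an edgeR quasi-likelihood test with p-values adjusted over all 21407 genes tested. Genes with an adjusted p under 0.05 were called, and this test called 1.82% of all genes, 1.22% higher and 0.598% lower in the mutant. The calls thus covered 1 of the 13 mitochondrial members (7.69%) and 1 of the 94 nuclear members tested (1.06%). All 13 mitochondrial members had a negative log2 fold change, from -0.37 to -1.70 with a median of -0.90, where the median over all genes was 0.01. Leaving out wild-type replicate 3 at 61 dpf brought this median to -0.66. Nuclear members had a median of 0.11, with 57 above 0 (50.4% of all genes were) and 37 below. Its direction rested on the wild-type libraries: the median was -0.15 without replicate 2 (41 above 0 and 53 below) and 0.36 without replicate 1 (69 above 0 and 25 below), and it was 0.17 without replicate 3, 0.04 without mutant replicate 3 and 0.19 without mutant replicate 2. At an unadjusted p under 0.05, 10 of the 13 mitochondrial members were lower, against 12.2% of all genes, while 8 nuclear members were higher and 6 lower, against 13.2% and 12.2% of all genes. The levels of 8 mitochondrial members (61.5%) did not overlap between the genotypes and were lower in each mutant library, where 12.3% of all genes did so. Without TMM scaling this count was 5, against 7.37% of all genes. Mitochondrial members are cut from long transcripts, and 11 of the 13 were highest in wild-type replicate 3 at 61 dpf. Counts of them, in this or any comparison, are thus not counts of independent genes.

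Complex I is the entry point of electrons from NADH, and its mitochondrial genes encode subunits of the membrane arm that pumps protons. The transcript of mt-nd4, one of these, stood at 646, 681 and 1028 CPM in wild type and 651, 437 and 785 CPM in mutant at 47 dpf. At 61 dpf it stood at 1466, 1725 and 3878 CPM in wild type and 658, 947 and 610 CPM in mutant. Each mutant library at 61 dpf lay below each wild-type library of that age, and replicate 3 of wild type stood far above the other 2. The mean was 3.19-fold lower in mutant, with a log2 fold change of -1.67 ± 0.37 (SE; adjusted p = 0.0462, edgeR). Leaving out wild-type replicate 3 at 61 dpf gave -1.11 with an edgeR adjusted p of 0.0998. The call was kept in 3 of the 12 fits that left out 1 library each, and was lost (edgeR adjusted p of 0.054 to 0.164) when the library left out was wild-type replicate 1 or 2 or any mutant replicate at 47 dpf, or wild-type replicate 3 or any mutant replicate at 61 dpf.

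The gene mt-nd4l, which shares its message with mt-nd4, followed it. Its levels at 61 dpf were 596, 749 and 1892 CPM in wild type and 306, 492 and 317 CPM in mutant, with a log2 fold change of -1.54 ± 0.42 (SE; adjusted p = 0.0683, edgeR). These genes overlap, so reads may be divided between them by the estimation. The transcript of mt-nd2 stood at 755, 1000 and 2308 CPM in wild type and 441, 685 and 432 CPM in mutant, a log2 fold change of -1.38 ± 0.38 (SE; adjusted p = 0.0681, edgeR). For both genes the groups did not overlap, yet neither passed the threshold. mt-nd5 also did not overlap, at 924, 1042 and 2069 CPM against 672, 905 and 700 CPM (log2 fold change -0.83 ± 0.29, edgeR adjusted p = 0.109). mt-nd6, the one protein gene on the opposite strand, overlapped at 442, 558 and 1435 CPM against 308, 484 and 345 CPM (log2 fold change -1.10 ± 0.40, edgeR adjusted p = 0.123). The use of strand in counting is not given in the sources used here, so its reads and antisense reads of that region cannot be told apart. mt-nd3 and mt-nd1 overlapped between the genotypes, with log2 fold changes of -0.79 ± 0.34 and -0.37 ± 0.24. Without wild-type replicate 3 at 61 dpf, the value for mt-nd1 was 0.00 (edgeR adjusted p = 0.999).

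In complex III, mt-cyb encodes cytochrome b, the core subunit that passes electrons from ubiquinol. Its transcript was at 740, 1009 and 1321 CPM in wild type and 584, 577 and 486 CPM in mutant at 61 dpf. The groups did not overlap, and the log2 fold change was -0.90 ± 0.22 (SE; adjusted p = 0.0585, edgeR).

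The 3 mitochondrial genes of complex IV encode its catalytic core and had a class median log2 fold change of -0.45, against -1.10 for the 7 genes of complex I. Without wild-type replicate 3 at 61 dpf these medians were close, at -0.33 and -0.40. The levels of mt-co1, the subunit that binds oxygen, were 2560, 4476 and 4378 CPM in wild type and 2975, 2925 and 2472 CPM in mutant at 61 dpf, and overlapped. Those of mt-co3 overlapped too, at 507, 908 and 833 CPM against 598, 617 and 472 CPM. mt-co2, the subunit that takes electrons from cytochrome c, did not overlap, at 1369, 842 and 1660 CPM against 784, 822 and 495 CPM, with a log2 fold change of -0.88 ± 0.29 (SE; adjusted p = 0.0991, edgeR). It was the one mitochondrial gene at which wild-type replicate 2 at 61 dpf lay below the mean of wild type at 47 dpf.

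Both mitochondrial genes of complex V had large differences. mt-atp8 was at 218, 339 and 821 CPM in wild type and 117, 182 and 124 CPM in mutant at 61 dpf, a log2 fold change of -1.70 ± 0.46 (SE; adjusted p = 0.0675, edgeR). mt-atp6, the subunit that forms the proton path with the rotor ring, was at 954, 1321 and 2444 CPM against 568, 713 and 391 CPM, with -1.50 ± 0.39 (SE; adjusted p = 0.0646, edgeR). Neither overlapped between the genotypes and neither passed the threshold. These genes overlap on the shared message, so their values are not independent.

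**Figure D2:**
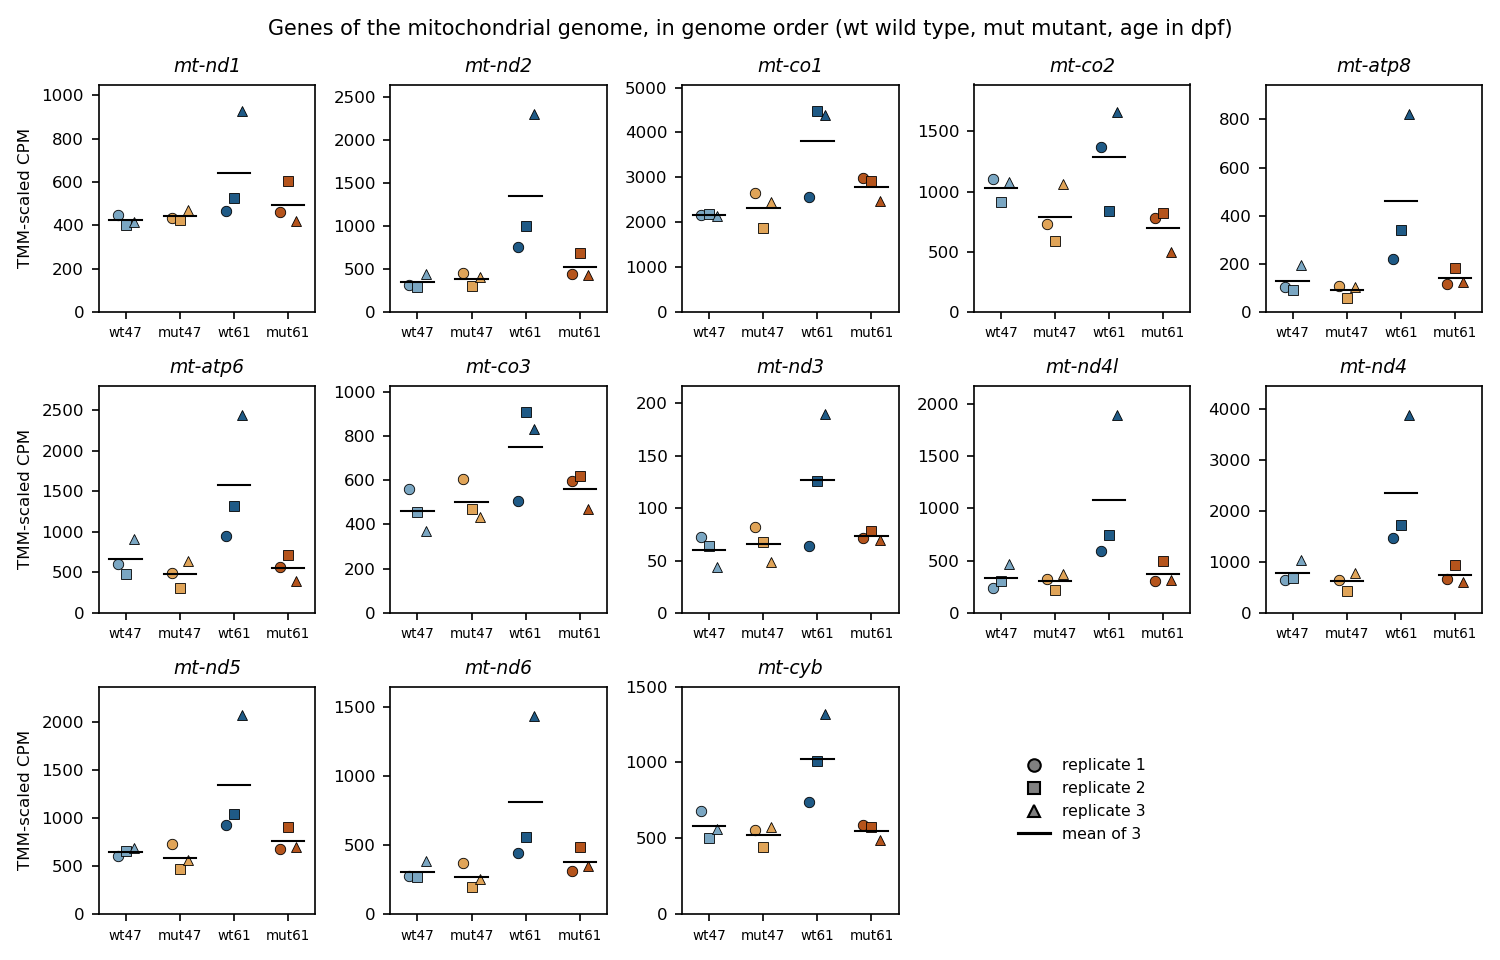
TMM-scaled CPM of each of the 13 mitochondrial-genome genes in 12 libraries, in genome order, with bars at group means of 3 libraries. In 11 of 13 genes the highest value is wild-type replicate 3 at 61 dpf, and the mutant libraries at 61 dpf sit near the levels of 47 dpf.

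The differences were uneven along the mitochondrial genome. Set against the mean of wild type at 47 dpf, wild-type replicate 3 at 61 dpf had a median log2 difference of 1.68 over the 13 genes, and ranged from 0.69 for mt-co2 to 2.74 for mt-nd2. Replicate 2 had a median of 0.98 (from -0.29 for mt-co2 to 1.53 for mt-nd2), and replicate 1 a median of 0.51 (from 0.08 for mt-nd3 to 1.13 for mt-nd2). mt-nd2 was thus the gene with the highest difference in all 3 wild-type libraries at 61 dpf. It lies between mt-nd1 and mt-co1, which had lower values in each of these libraries. The mutant libraries at 61 dpf had medians of 0.01, 0.44 and -0.01, with mt-co2 lowest in all 3 (-0.40, -0.33 and -1.06). At 47 dpf, mutant replicate 2 had a median of -0.47 and held the lowest level of 8 of the 13 genes.

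**Figure D3:**
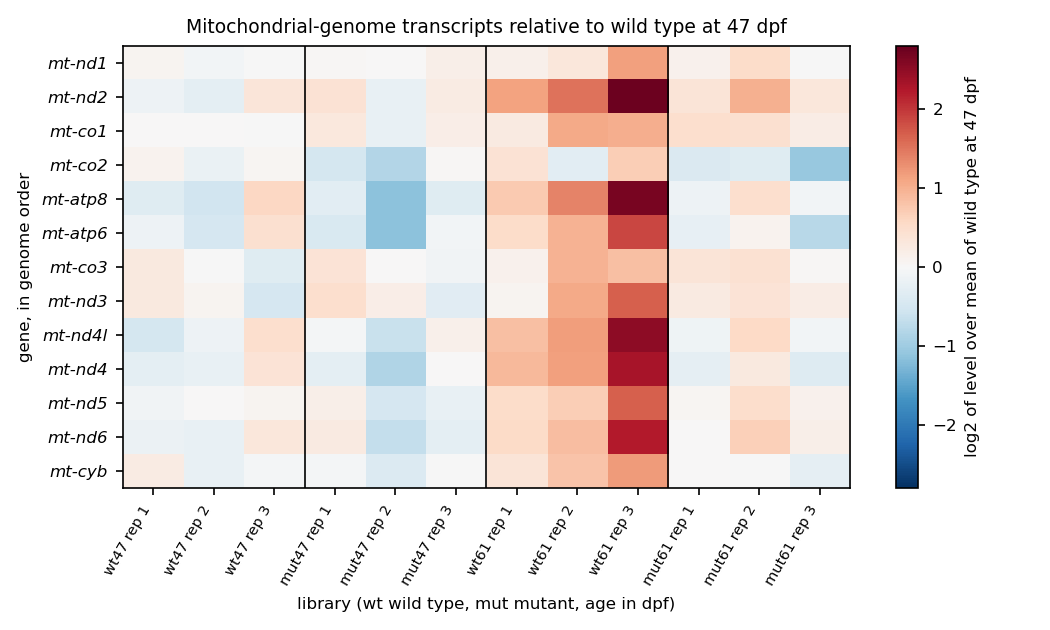
Log2 of the level of each mitochondrial-genome gene (rows, in genome order) in each library (columns) over the mean of wild type at 47 dpf. Wild-type libraries at 61 dpf have medians of 0.51, 0.98 and 1.68, with mt-nd2 highest in each, and mutant libraries at 61 dpf have medians of 0.01, 0.44 and -0.01.

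Among nuclear members at 61 dpf, cox8a alone passed the test in the mutant. It encodes a small structural subunit of complex IV. Its levels were 16.1, 19.5 and 18.5 CPM in wild type and 23.5, 26.7 and 20.5 CPM in mutant at 47 dpf. At 61 dpf they were 13.4, 12.7 and 10.8 CPM in wild type and 20.6, 25.7 and 23.1 CPM in mutant. The mutant libraries lay above the wild-type libraries of the same age at both ages. At 61 dpf the mean was 1.88-fold higher in mutant, a log2 fold change of 0.91 ± 0.18 (SE; adjusted p = 0.0375, edgeR), and at 47 dpf the log2 fold change was 0.39 ± 0.18 (SE; adjusted p = 0.725, edgeR). The difference between these effects was 0.52 ± 0.26 (SE; adjusted p = 0.609, edgeR), so they were not shown to differ. The call at 61 dpf was kept in 5 of 12 fits that left out 1 library each. It was lost (edgeR adjusted p of 0.0505 to 0.132) without wild-type replicate 2 or mutant replicate 1 or 3 at 47 dpf, and without wild-type replicate 3 or any mutant replicate at 61 dpf. Its paralogue cox8b was scarce, at 1.37 to 3.62 CPM in the 6 libraries at 61 dpf, and overlapped between genotypes.

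For the other 17 nuclear subunits of complex IV at 61 dpf, the log2 fold changes centred on a median of 0.24. Of these, 12 lay above 0 and 5 below, and none passed the test. This median was 0.08 without wild-type replicate 2 and 0.52 without replicate 1. cox6a2, whose mammalian counterpart is the heart and skeletal muscle form of subunit 6A, was at 2.87, 3.45 and 2.19 CPM in wild type and 6.93, 6.51 and 4.01 CPM in mutant at 61 dpf. The groups did not overlap, and the log2 fold change was 1.04 ± 0.32 (SE; adjusted p = 0.0881, edgeR). At 47 dpf it was 4.84, 3.77 and 2.98 CPM against 10.6, 7.6 and 5.5 CPM, again without overlap (log2 fold change 1.03 ± 0.32, edgeR adjusted p = 0.43). The more abundant form, cox6a1, was at 124 to 167 CPM in all 12 libraries and overlapped between the genotypes at both ages. The skeletal muscle marker sum (18 genes, none at 0 throughout a group) was 19 to 20.7 CPM in wild type and 26.6 to 31.7 CPM in mutant at 61 dpf. It was 20.4 to 67.8 CPM in wild type at 47 dpf, and in mutant it was 522 CPM in replicate 2, with actc1b its highest gene, against 23.4 and 36.3 CPM in replicates 1 and 3. In replicates 1 to 3 of the mutant at 47 dpf, cox6a2 was at 10.6, 7.6 and 5.5 CPM. The part of muscle tissue in the levels of cox6a2 was not tested.

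cox5b2 had a similar pattern at lower levels, at 1.22, 0.85 and 0.344 CPM in wild type and 2.49, 2.29 and 1.5 CPM in mutant at 61 dpf, with log2 fold changes of 1.36 ± 0.54 at 61 dpf (edgeR adjusted p = 0.146) and 1.77 ± 0.53 at 47 dpf (edgeR adjusted p = 0.416). cox6c went the other way at 61 dpf. Replicates 1 and 3 of wild type were at 109 and 197 CPM, and the mutant libraries at 52, 45.9 and 55 CPM, with wild-type replicate 2 just above the highest mutant library, a log2 fold change of -1.25 ± 0.40 (SE; adjusted p = 0.0944, edgeR). The mutant libraries lay close together, and below the lowest wild-type library. cox4i1, the common form of subunit 4, spread widely, at 202, 74.4 and 168 CPM in wild type and 87.3, 86.6 and 82.2 CPM in mutant, and overlapped. Its paralogues cox4i1l and cox4i2 stayed under 2 CPM in all libraries, as did cox7a1 of the cox7a pair, where cox7a2a was at 4.96 to 27.2 CPM. Of the cox6b pair, cox6b2 made up most counts, at 65.7 to 396 CPM, and cox6b1 was at 0.916 to 2.32 CPM.

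The cox5a pair, both forms of subunit 5A, separated wild-type replicates 2 and 3 at 61 dpf from the rest. cox5ab was at 160, 166 and 130 CPM in wild type and 123, 273 and 125 CPM in mutant at 47 dpf. At 61 dpf it was at 98.1, 14.1 and 14.1 CPM in wild type and 141, 76.3 and 130 CPM in mutant. The genotypes overlapped at 61 dpf through wild-type replicate 1, with a log2 fold change of 1.46 ± 0.65 (SE; adjusted p = 0.184, edgeR). Without that replicate it was 3.06, and cox5ab was 1 of 9 nuclear members called higher in mutant, the others being atp5f1b, atp5if1a, cox5aa, cox8a, ndufs4, ndufs5, ndufv2 and sdhb. That fit called 1.52% of all genes higher and 1.05% lower. Without replicate 2 instead, 4 nuclear members were called lower (atp5if1b, cox6c, ndufab1b and ndufc2) and cox8a alone higher, where 4.1% of all genes were called lower and 3.38% higher. Both lists were chosen after their values were seen. cox5aa was at 106, 43.7 and 44.8 CPM in wild type and 92, 80.5 and 91.8 CPM in mutant.

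For nuclear subunits of complex I at 61 dpf the median of the log2 fold changes was 0.06, 20 of the 36 tested lay above 0, and none passed the test. This median was -0.22 without wild-type replicate 2 and 0.36 without replicate 1. The accessory subunit ndufb4, the one with the highest mean count level, stood at 87.4, 24.3 and 126 CPM in wild type and 70.2, 53 and 65.3 CPM in mutant. ndufb5, another accessory subunit, did not overlap, at 39.7, 30.7 and 59.3 CPM against 28.2, 28.5 and 27.8 CPM (log2 fold change -0.62 ± 0.27, edgeR adjusted p = 0.179). ndufv2, an iron-sulfur subunit of the arm that takes electrons from NADH, was at 32.9, 11.9 and 14.4 CPM against 32.9, 35.8 and 40.8 CPM. ndufv2 was chosen for naming after its values were seen. The spread among the wild-type libraries of these 3 genes was wider than that among the mutant libraries. ndufa9b was the 1 member that did not pass the filter on low counts, at 0.0429 to 0.301 CPM over the 12 libraries.

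In complex II, sdha, the subunit that oxidises succinate, stood at 81.9, 61.2 and 65.1 CPM in wild type and 49, 48.1 and 73.4 CPM in mutant at 61 dpf. sdhb, which carries the iron-sulfur centres, was at 35.5, 12.6 and 12.7 CPM against 30.8, 33.7 and 37.2 CPM. Both overlapped between genotypes. Of the paired membrane anchors, sdhdb was at 18.5 to 34.3 CPM over the 12 libraries, while sdhda was at 0.0429 to 0.53 CPM, near the level that a count of 0 allows. In complex III, uqcrfs1, the Rieske iron-sulfur subunit, stood at 63, 66.9 and 187 CPM in wild type and 89, 75.2 and 95.5 CPM in mutant at 61 dpf. The median of the 8 nuclear genes of complex III was 0.00, with 4 above 0 and 4 below, and it was -0.29 without wild-type replicate 2 and 0.71 without replicate 1.

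In complex V, the catalytic beta subunit gene atp5f1b stood at 740, 258 and 361 CPM in wild type and 668, 538 and 717 CPM in mutant at 61 dpf, a log2 fold change of 0.50 ± 0.32 (SE; adjusted p = 0.354, edgeR). Wild-type replicate 1 was the highest of all 6 libraries and replicates 2 and 3 the lowest. The 17 nuclear subunits had a median of 0.16, with 12 above 0, which was -0.15 without wild-type replicate 2 and 0.46 without replicate 1. Those of the rotor ring that did not overlap, atp5mc1 and atp5mc3a, were lower in mutant (log2 fold changes of -0.50 and -0.59), while atp5mc3b had a value of 0.95 and overlapped. In mammals the genes of this subunit encode the same mature protein, so counts of a single copy are uncertain, and these genes were chosen for naming after their values were seen. The inhibitor gene atp5if1b, whose product holds back ATP hydrolysis by the enzyme, was at 24.8, 9.92 and 50.2 CPM in wild type and 7.18, 6.69 and 7.4 CPM in mutant. The groups did not overlap, and the log2 fold change was -2.00 ± 0.60 (SE; adjusted p = 0.083, edgeR). Its more abundant paralogue atp5if1a overlapped, at 284, 62.6 and 82.7 CPM against 147, 164 and 206 CPM.

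**Figure D4:**
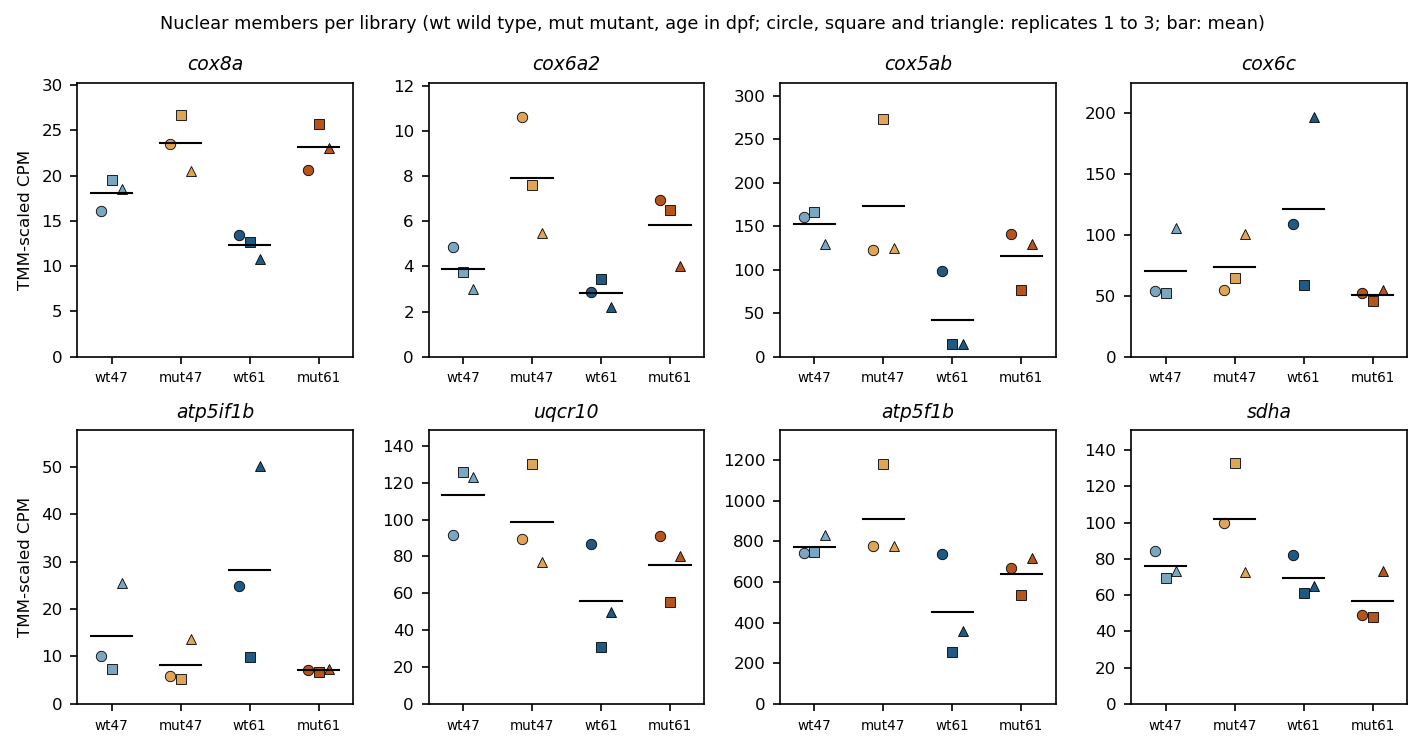
TMM-scaled CPM of 8 nuclear members in 12 libraries, with bars at group means of 3. Mutant libraries of cox8a and cox6a2 sit above the wild-type libraries of the same age, whereas cox5ab, uqcr10 and atp5f1b are lowest in wild-type replicates 2 and 3 at 61 dpf.

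Over all nuclear members, 7 of 94 (7.45%) were higher in each mutant library at 61 dpf and 6 (6.38%) lower, both under the shares of all genes, 15.6% and 12.3%. Without TMM scaling these counts were 18 and 3, and the shares of all genes 20.7% and 7.37%. The spread among libraries was unequal between groups: the median SD of log2 CPM over nuclear members was at 47 dpf 0.196 among wild-type and 0.345 among mutant libraries, and at 61 dpf 0.695 among wild-type and 0.151 among mutant ones. Over all genes tested it was 0.241, 0.263, 0.37 and 0.2 in the same order. For mitochondrial members it was 0.302, 0.385, 0.689 and 0.339. Wild type at 61 dpf was thus the group in which respiratory chain genes of both genomes varied most. The fit pools the spread over all 4 groups, so the SE and p-values of comparisons with that group may be too small. Those of comparisons without it, the genotypes at 47 dpf and the ages in mutant, may be too large.

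Between 47 and 61 dpf in wild type, the transcript of mt-nd2 rose and no other member passed the test. This comparison shares the wild-type libraries at 61 dpf with the comparison of genotypes at that age. It called 1.52% of all genes, 0.729% higher and 0.789% lower, against 1 of 13 mitochondrial members (7.69%) and 0 of 94 nuclear ones. mt-nd2 went from 313, 285 and 438 CPM at 47 dpf to 755, 1000 and 2308 CPM at 61 dpf. The ages did not overlap, and the log2 fold change was 1.97 ± 0.38 (SE; adjusted p = 0.0339, edgeR). The call was kept in 5 of 12 fits that left out 1 library each. It was lost (edgeR adjusted p of 0.0513 to 0.131) without any wild-type replicate or mutant replicate 3 at 47 dpf, and without wild-type replicate 3 or mutant replicate 1 or 3 at 61 dpf.

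All 13 mitochondrial members had a positive log2 fold change with age in wild type, from 0.32 for mt-co2 to 1.97 for mt-nd2, with a median of 1.08 where the median over all genes was 0.02. Without wild-type replicate 3 at 61 dpf the median of the 13 was 0.69. At an unadjusted p under 0.05, 12 of 13 were higher, against 11.4% of all genes, and 10 (76.9%) were higher without overlap, against 11.2% of all genes. The values by gene were 0.60 for mt-nd1, 0.82 for mt-co1, 1.81 for mt-atp8, 1.23 for mt-atp6, 0.70 for mt-co3, 1.08 for mt-nd3, 1.69 for mt-nd4l, 1.59 for mt-nd4, 1.06 for mt-nd5, 1.41 for mt-nd6 and 0.82 for mt-cyb. mt-nd4 came closest to the threshold after mt-nd2, with an SE of 0.37 (edgeR adjusted p = 0.0557).

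Among nuclear members the median log2 fold change with age in wild type was -0.33, with 23 above 0 (51.5% of all genes were) and 71 below. This median was -0.08 (40 above 0 and 54 below) without wild-type replicate 2 at 61 dpf, and -0.59 without replicate 1. None was called by edgeR or by DESeq2, which called 939 of 25793 genes higher and 731 lower. At an unadjusted p under 0.05, 13 were lower and 2 higher, against 10.2% and 11.4% of all genes, and 14 (14.9%) were lower without overlap, against 11.5% of all genes. uqcr10, a small subunit of complex III, was at 91.5, 126 and 123 CPM at 47 dpf and 87, 31.1 and 49.6 CPM at 61 dpf, a log2 fold change of -1.02 ± 0.34 (SE; adjusted p = 0.122, edgeR). cox5ab had the largest negative value, -1.85 ± 0.65 (SE; adjusted p = 0.138, edgeR), and cox8a had -0.55 ± 0.18 (SE; adjusted p = 0.12, edgeR). The smallest p was that of sdhda (-1.78 ± 0.57, edgeR adjusted p = 0.114), a gene near the level that a count of 0 allows. All 5 subunits of complex II and 15 of 17 nuclear subunits of complex V were below 0, as were 4 and 11 of them without replicate 2, whereas 3 of 4 sdhaf assembly factors were above. Leaving out wild-type replicate 1 at 61 dpf gave 18 nuclear members called lower, in a fit that called 2.36% of all genes lower. The same fit called 9 mitochondrial members higher, against 1.55% of all genes. Leaving out replicate 3 gave none of either, where 0.138% of all genes were called higher and 0.0968% lower.

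**Figure D5:**
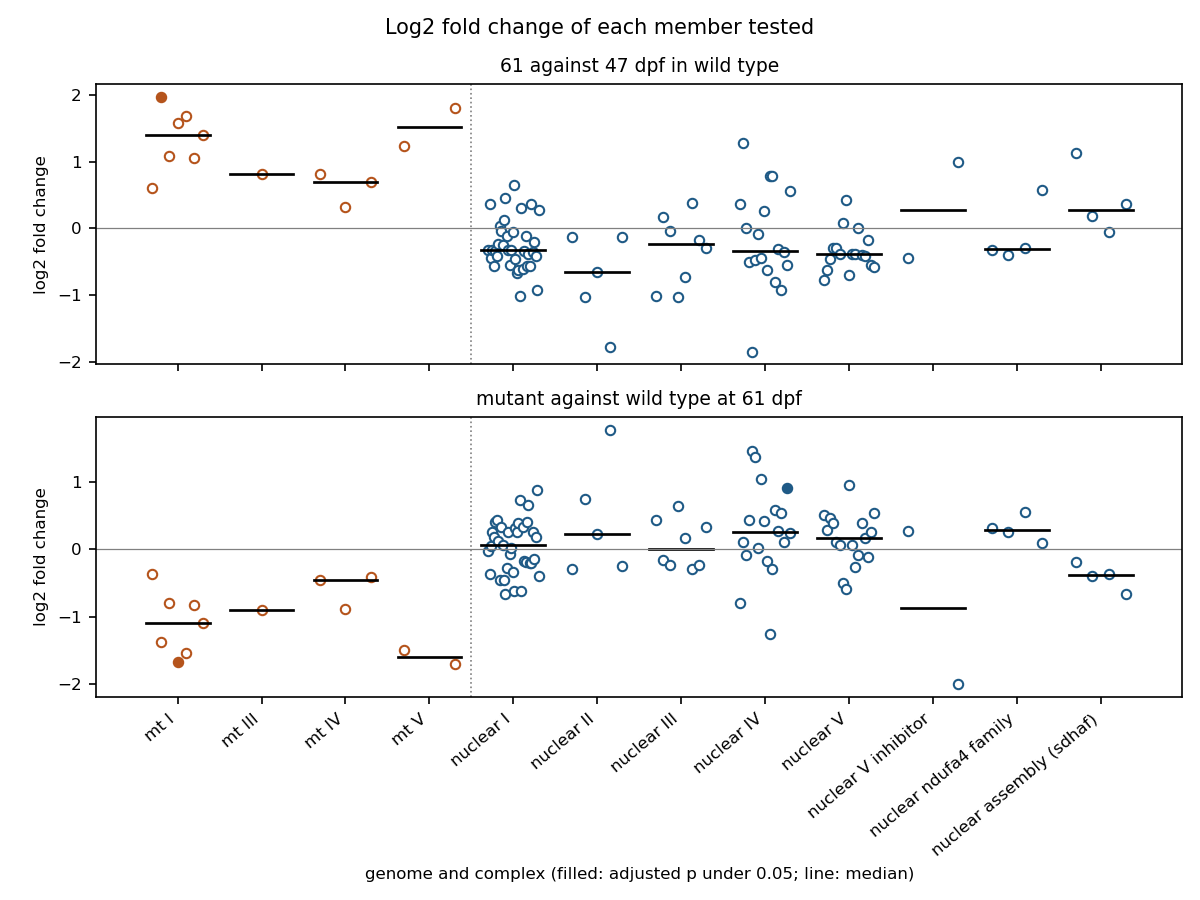
Log2 fold change of each member tested, by genome and complex, for 61 against 47 dpf in wild type (top) and mutant against wild type at 61 dpf (bottom), with class medians as lines and called genes filled. The 13 mitochondrial genes lie above 0 at the top (median 1.08) and below 0 at the bottom (median -0.90), and both panels share the wild-type libraries at 61 dpf.

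In mutant ovary, no gene of the table was called between 47 and 61 dpf (0% of genes tested). An unadjusted p under 0.05 was reached by 4 nuclear members, all lower, and by none of the 13 mitochondrial members. Of all genes, 2% were lower and 1.83% higher at that p. DESeq2 called 23 genes of the table and no member. Mitochondrial members had a median log2 fold change of 0.24, with 12 of 13 above 0, and nuclear members a median of -0.29, with 9 of 94 above 0, where 49% of all genes lay above it. Without mutant replicate 2 at 47 dpf these medians were 0.13 and -0.18 (15 of 94 above 0), and without mutant replicate 2 at 61 dpf the mitochondrial one was 0.08. Of the nuclear members, 17 (18.1%) were lower at 61 dpf without overlap, against 6.04% of all genes, and none was higher. sdha was at 100, 133 and 72.5 CPM at 47 dpf and 49, 48.1 and 73.4 CPM at 61 dpf, with a log2 fold change of -0.84 ± 0.24 (SE; adjusted p = 1, edgeR). cox4i2 (-0.69 ± 0.30) and ndufb3, an accessory subunit of complex I (-0.50 ± 0.22), were the next by p. The abundant atp5f1b went from 777, 1179 and 778 CPM to 668, 538 and 717 CPM, without overlap.

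The effect of genotype on a mitochondrial gene was not shown to differ between ages. The test of that difference called no gene of the table (0%) in edgeR and 102 in DESeq2, none of them a member. All 13 mitochondrial members had a negative value, with a median of -0.92 against -0.04 over nuclear members and -0.04 over all genes, and 4 (mt-cyb, mt-nd2, mt-nd4 and mt-nd4l) were at an unadjusted p under 0.05, against 4.07% of all genes that were lower and 4.39% that were higher. In all, 46.7% of genes had a value above 0. Without wild-type replicate 3 at 61 dpf the mitochondrial median was -0.44, and the nuclear median ran from -0.31 without wild-type replicate 2 to 0.33 without replicate 1 of that age. The value for mt-nd2 was -1.55 ± 0.53 (SE; adjusted p = 0.494, edgeR). Among nuclear members, the smallest p-values were those of sdhda (1.88 ± 0.77, edgeR adjusted p = 0.548), cox6c (-1.31 ± 0.57, edgeR adjusted p = 0.561) and ndufb5 (-0.84 ± 0.38, edgeR adjusted p = 0.587). The levels of sdhda were near the level that a count of 0 allows.

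At 47 dpf, no member differed between genotypes in the edgeR test, which called 0.0888% of all genes (0.0467% higher and 0.042% lower). DESeq2 called no member either, and of 25793 genes it called 137 higher and 34 lower. At an unadjusted p under 0.05 there were 3 nuclear members, all of complex IV and all higher in mutant (cox5b2, cox6a2 and cox6b1), against 5.12% of all genes that were higher and 1.8% that were lower, and no mitochondrial member. The 13 mitochondrial members had a median log2 fold change of -0.14, with 5 above 0 and 8 below. The nuclear members had a median of 0.12, with 70 of 94 above 0, against 52.7% of all genes. Without mutant replicate 1 at 47 dpf the nuclear median was 0.22. Without mutant replicate 2 at 47 dpf it was 0.00, with 46 above 0 and 48 below, and the mitochondrial median was 0.02, with 7 above 0 and 6 below. Of the nuclear members, 7 (7.45%) were higher without overlap, near the 8.01% of all genes, and 1, sdhdb, was lower, against 4.6%. cox6b1 was at 1.56, 1.14 and 0.916 CPM in wild type and 2.32, 1.69 and 2.18 CPM in mutant (log2 fold change 0.78 ± 0.32, edgeR adjusted p = 0.642).

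Related mitochondrial lists, also all encoded in the nucleus, were compared at 61 dpf. Of 17 genes for stability and processing of mitochondrial RNA, 1 was called lower in mutant and none higher, against 0.598% and 1.22% of all genes. Their median log2 fold change was -0.24, with 3 above 0. The called gene was mtpap, which encodes the poly(A) polymerase that adds tails to mitochondrial messages. It stood at 32.5, 18.3 and 32.1 CPM in wild type and 11.1, 12 and 9.57 CPM in mutant, without overlap, a log2 fold change of -1.34 ± 0.30 (SE; adjusted p = 0.0478, edgeR). The call was kept in 3 of 12 fits that left out 1 library each, with an edgeR adjusted p of up to 0.164. It was lost when only the compared libraries were fitted, and with replicate number as a block. In wild type at 47 dpf mtpap was at 13, 12.8 and 18.9 CPM. Its part in the levels of mitochondrial messages, which were measured in polyadenylated RNA, was not tested.

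Of 74 proteins of the mitochondrial ribosome, which translates the 13 mitochondrial messages, 2 were called lower in mutant and none higher. Of all genes, 0.598% were called lower and 1.22% higher. The list had a median of -0.24, with 22 above 0. mrpl43 stood at 54.8, 59 and 81.5 CPM in wild type and 31.2, 34.6 and 21.9 CPM in mutant (log2 fold change -1.15 ± 0.25, edgeR adjusted p = 0.0439). mrpl57 stood at 37, 31.4 and 37.1 CPM against 23.4, 20.6 and 20.4 CPM (log2 fold change -0.71 ± 0.16, edgeR adjusted p = 0.0481). Neither overlapped between genotypes, and both encode proteins of the large ribosomal subunit. Of 12 fits that left out 1 library each, 3 kept the call of mrpl43 and 1 that of mrpl57. The edgeR adjusted p rose to as much as 0.162 for mrpl43 and 0.169 for mrpl57. Both calls were lost when only the compared libraries were fitted, and with replicate number as a block.

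No gene of the other 6 mitochondrial lists was called at 61 dpf. The 51 assembly factors, which build the complexes and include the 4 sdhaf genes, had a median of -0.23 with 16 above 0, and the smallest p belonged to cmc4 (log2 fold change -1.67, edgeR adjusted p = 0.0893). The 18 genes of mitochondrial transcription and DNA upkeep had a median of -0.33 with 5 above 0, led by polg2, the accessory subunit of the mitochondrial DNA polymerase (-0.77, edgeR adjusted p = 0.1). The 12 regulators of mitochondrial biogenesis had a median of 0.04, led by the coactivator ppargc1a (1.45, edgeR adjusted p = 0.108), which was under 2 CPM at this age. The 13 citrate cycle genes had a median of 0.02, led by suclg2 (0.61, edgeR adjusted p = 0.0924). The 10 genes of mitophagy, fission and fusion had a median of 0.03, led by bnip3lb (-0.37, edgeR adjusted p = 0.186). The cytochrome c gene cycsb had 0.38 (edgeR adjusted p = 0.498). None of these 8 mitochondrial lists had a called gene in the other 4 comparisons.

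The 3 genes outside the members whose level most resembled the summed mitochondrial level over the 12 libraries were gtpbp4, zbtb18 and osbpl9, each with a Pearson r of 0.97. The libraries of wild type at 61 dpf are the highest on both measures, and over the 9 other libraries r was 0.91, 0.81 and 0.97. The genes were picked by their r over all 12 libraries, so the values over these 9 are no separate check. gtpbp4 stood at 147, 155 and 186 CPM in wild type at 61 dpf and at 97.3 to 126 CPM elsewhere.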

How the data were processed

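The authors' deposited table gives estimated counts for each gene symbol in the 12 libraries. The submitters' processing notes name kallisto and the assembly GRCz11. No source used here gives versions, the annotation or how transcripts became genes. Estimated counts of near-identical or overlapping genes may be divided between copies.

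Values were rounded to whole counts, and a line that named no gene, holding no more than 0.000113% of any library, was dropped. filterByExpr left 21407 of 26171 genes and 107 of 108 members. All 12 libraries were fitted in 1 edgeR 4.0.16 quasi-likelihood model (R 4.3.3) with TMM factors and 1 coefficient for each of the 4 groups, at a common coefficient of biological variation of 0.33. Adjusted p-values are Benjamini-Hochberg over all genes tested, called under 0.05. The fit was also run on simulated data with the same spread for every gene and group, set below the common spread of these data. That run thus gives no check of calls under the larger and unequal spread of these libraries. Sums over members carry no test.

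Members and lists were chosen with earlier results of these data known. Named genes were all mitochondrial members; nuclear members called; the 3 nuclear members with the smallest p in each comparison; the member of each complex with the highest mean level; paralogue sets; and of related lists the called genes, or the 1 with the smallest p. Alternatives were other scalings, no filter, DESeq2 1.42.0, the compared libraries only, a replicate block, and leaving out libraries.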

Additional observations from a re-analysis of the deposited data

How the results depend on the processing

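Calls near the threshold moved with the fit, while directions of the named results mostly held. The direction of the nuclear median between genotypes at 61 dpf did not hold. It was 0.11 with all libraries and -0.15 without wild-type replicate 2 of that age. For the difference between ages of the mutant effect, the nuclear median ran from -0.31 to 0.33 when 1 library was left out. Of 49 named results under up to 20 other settings each, 1 reversed, mt-nd1 between genotypes at 61 dpf. It ranged from -0.55 to 0.00 when 1 library was left out, the latter without wild-type replicate 3 of that age. Leaving out a library outside the compared groups could hardly move a direction, since each group had its own coefficient. For mt-nd1 the value was -0.37 without any library of 47 dpf. The named results were also chosen in part for a small p, which makes a reversal less likely. Mitochondrial members called at 61 dpf between genotypes numbered 8 with DESeq2, 0 with no filter, 0 with the compared libraries only, 0 with a replicate block, and 6 without mutant replicate 2 at 47 dpf and wild-type replicate 2 at 61 dpf (chosen after seeing the data). Nuclear members called there numbered 4, with DESeq2 (2 higher, 2 lower), 0 with the compared libraries only, 0 with a replicate block and 5 without those libraries. Of 25793 genes with a p-value, DESeq2 called 1098 higher and 1321 lower there. The fit with no filter called 192 higher and 83 lower of 25851 genes. Without those libraries, 625 were called higher and 837 lower of 21841 genes. With age in wild type, mitochondrial members called numbered 10 with DESeq2, and 0 with the compared libraries only or with a replicate block. Among all genes, DESeq2 called 939 higher and 731 lower with age. The compared libraries alone called 11 higher and 15 lower of 20088 genes, and the replicate block 61 higher and 54 lower of 21407. Replicate numbers were not taken to pair samples. Same-numbered libraries of the genotypes deviated together with correlations of 0.035, 0.068 and 0.254 at 47 dpf and 0.023, 0.008 and -0.016 at 61 dpf. The value of 0.254, for replicate 3 at 47 dpf, was the highest of all pairs between groups. Differently numbered libraries of different groups had correlations of -0.228 to 0.238. The replicate block called 87 genes in all between genotypes at 61 dpf, against 390 without it, and the compared libraries alone called 20. Leaving out 1 library at a time gave 0 to 7 mitochondrial and 0 to 9 nuclear members called at 61 dpf, and 0 to 9 and 0 to 18 with age in wild type. The 7 came without wild-type replicate 2 at 61 dpf, where 4.1% of all genes were called lower. The 9 nuclear members at 61 dpf came without replicate 1, where 1.52% were called higher. So did the 9 and 18 with age, where 1.55% of all genes were called higher and 2.36% lower. When 1 library was left out, members not overlapping numbered 8 to 12 and 15 to 46 at 61 dpf, and 10 to 12 and 18 to 47 with age. The shares of all genes were not computed for these counts. A group of fewer libraries overlaps less often by chance, so they cannot be set against the counts from all libraries. On unscaled CPM, 5 mitochondrial and 21 nuclear members did not overlap at 61 dpf. Of all genes, 20.7% were then higher and 7.37% lower without overlap. Upper-quartile scaling moved the median of all genes to 0.20 at 61 dpf, with medians of -0.70 (mitochondrial) and 0.31 (nuclear), and called 878 genes higher and 111 lower, against 262 and 128. Depth was not the limit for mitochondrial members, each at over 40 CPM in every library, but sdhda and ndufa9b were near the level a count of 0 allows.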
